A study of Mus musculus with 2 samples.

Results

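Genes that carry out cell division were read in RAW264.7 cells, an established mouse macrophage line derived from an Abelson leukemia virus-induced tumor of a male BALB/c mouse. The set of 47 genes holds the kinases, cyclins, kinesins, kinetochore proteins and checkpoint proteins of mitosis, listed by name, and all 47 had a probe on the array among 20655 genes with a named probe. Of these 47, 45 were measured, meaning that their probe was well above background on both arrays, against 16885 measured genes in all. The vehicle group was 1 culture given vehicle control, and the IR-61 group 1 culture given IR-61, a heptamethine cyanine dye that accumulates in mitochondria, at 10 µM, both for 24 h. No other agent was given and both cultures were of the same line. Total RNA of each culture was labelled with Cy3 and hybridized to its own Agilent single-colour array, so that each condition had 1 array, and no test between the conditions and no p-value can be given. A difference between the arrays is a difference between these 2 cultures, and the question addressed was which transcripts differed after exposure of macrophages to the dye.

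Mitosis is driven by CDK1 bound to cyclin B, which is switched on by CDC25 phosphatases and joined by the Polo-like and Aurora kinases. Kinesins and spindle proteins then move the chromosomes, the spindle checkpoint holds the anaphase-promoting complex in check until every kinetochore is attached, and separase cuts the sister chromatids apart before cytokinesis. Most of these genes are transcribed in G2 and early mitosis, under the control of the MuvB core with B-MYB and FOXM1, and are silenced in resting cells by the DREAM complex. Their RNA levels are widely used as marks of proliferation.

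Signals are given in the processed intensity units of the scanner software. A difference is the log2 signal of IR-61 minus that of vehicle after the 75th percentile of each array, 10.30 for vehicle and 10.79 for IR-61, had been subtracted. The upper part of the signal distribution thus lay higher on the IR-61 array, though single genes went either way, and a gene whose signals were alike on both arrays has a negative difference. Well above background were 77.6% of the 39429 probes with vehicle and 81.2% with IR-61, no spot was saturated, and slide and scan were shared. The only error that could be measured was the spread between spots of a probe within an array. From it, the SD expected for a difference was 0.094 for genes whose log2 signal was above 10 on both arrays, 0.188 with only 1 array above it, 0.229 for middle signals, and 0.376 or 0.456 where 1 or both signals were under a log2 of 6. It holds nothing of the spread between cultures. Of the macrophage markers 9 of 10 had a named probe and all 9 were measured, with signals of 95036 and 139205 for *Csf1r*, the receptor of the macrophage growth factor, and of 52489 and 149992 for *Adgre1*, the F4/80 antigen. Of 18 markers of other cell types 13 were measured, among them the collagen gene *Col1a1* at 27148 and 58670.1, while *Epcam* and *Cdh1* of epithelium, *Tek* of endothelium, *Adipoq* of adipocytes and *Cd3g* of T cells were not measured. The median difference was −0.04 for the macrophage markers, from −0.98 to 1.03, 0.33 for 3 fibroblast markers and 0.77 for the 2 measured adipocyte markers, *Fabp4*, which macrophages also express, at 86908 and 161032 (0.40) and *Plin1* at 16.9 and 52.0 (1.13). *Cd3e* of T cells had 684 and 957. The part of such transcripts in the results below was not tested.

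Mitotic transcripts were on the whole slightly higher in the IR-61-treated culture. Their median difference was 0.30, against 0.10 for all measured genes, with quartiles of 0.04 and 0.52 against −0.15 and 0.34. Of the 45 genes, 34 had a difference above 0, where 61.2% of all measured genes did, and 11 had one below 0. Higher by 1.5-fold or more were 10 of the 45, where 9.82% of all measured genes were. Lower by 1.5-fold or more was 1, where 5.67% of all genes were. No gene of the set was higher or lower by 2-fold or more, where 3.39% of all measured genes were. The 10 genes past the upper limit were *Ect2*, *Aurkb*, *Birc5*, *Ccnb1*, *Bub1*, *Cenpe*, *Cdk1*, *Prc1*, *Kif2c* and *Kif22*, and the 1 past the lower limit was *Tpx2*, followed by *Ndc80*, *Plk4*, *Espl1*, *Top2a* and *Nuf2*. Before scaling, 40 of the 45 had the higher signal on the IR-61 array and 5 on the vehicle array. The median difference of all measured genes was then 0.59, and 50.5% of them were higher by 1.5-fold or more. A scaled difference of −0.486, close to that of a gene with equal raw signals, was the 8th percentile of all measured genes. So about 8% of all measured genes were lower before scaling, and the 40 of 45 do not set these genes apart. In a culture measured in bulk, a different share of dividing cells and a different amount of RNA per dividing cell cannot be told apart.

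The set was not uniform. Its differences had an SD of 0.42, close to the 0.44 of all measured genes, and 19 of its members lay in the upper quartile of all genes and 8 in the lower. Beyond 2 expected SD from the spots were 19 of the 45 differences, 14 higher and 5 lower with IR-61, the 5 being *Tpx2*, *Plk4*, *Ndc80*, *Top2a* and *Pttg1*. The other 26 lay within that error. The share of all measured genes beyond it was not counted, so these counts describe single genes and not the set. The distribution of the mitotic genes was moved upwards in its middle, while its upper end met that of all genes.

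**Figure D1:**
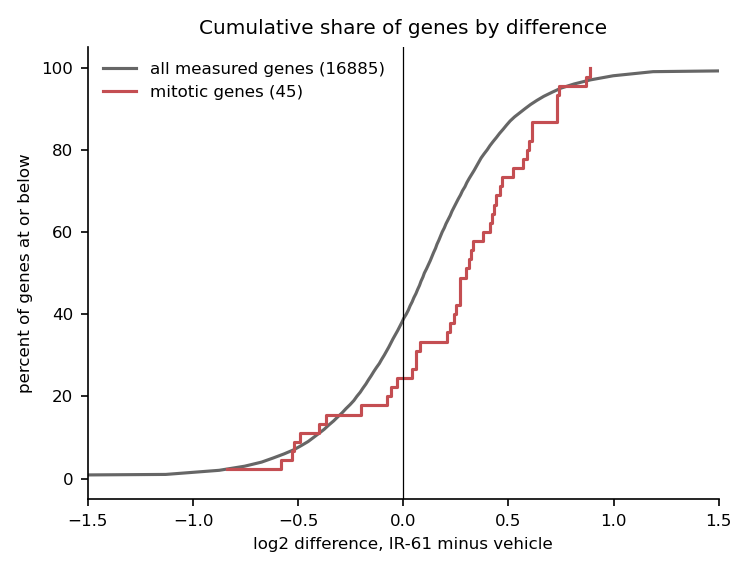
Cumulative percent of genes (vertical axis) at or below each log2 difference, IR-61 minus vehicle (horizontal axis), for the 45 measured mitotic genes and all 16885 measured genes, 1 array per condition. The mitotic curve lies to the right of that of all genes between differences of about 0 and 0.7, with medians of 0.30 and 0.10, and both curves meet at the ends.

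A feature that the choice of these genes did not use is the sequence in front of them. Many promoters of G2 and M genes carry a cell cycle genes homology region (CHR), the site of the MuvB complexes, and CCAAT boxes, the site of NF-Y. Promoter windows from 250 bases before to 50 after the start, taken from RefSeq on GRCm38.p6, were found for 39 of the 47 genes, as 42 windows. No entry was matched for *Aurkb*, *Ccna2*, *Cdc25c*, *Foxm1*, *Incenp*, *Kif20a*, *Spc24* and *Tpx2*. A CHR-type motif, TTTGAA or TTCGAA on either strand, stood in 33 of the 42 windows, or 78.6%, against 19.2% of all 32851 windows. The letters CCAAT on either strand stood in 73.8% against 37.4%, and both motifs together in 69.0% against 7.52%. With at least 2 CCAAT beside the CHR-type motif the shares were 47.6% and 2.31%. An E2F-type motif, TTTCGCGC, TTTGGCGC or TTTCCCGC on either strand, was rarer, in 7.14% of the mitotic windows and 1.84% of all. TTCGAA reads the same on both strands and was counted once, and none of these motifs holds another. Such matches describe letters and are not measured binding.

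The promoters below are those of the 6 genes with the largest differences, in either direction, among those with a CHR-type motif and at least 2 CCAAT. They let the number and place of these motifs, which differ from gene to gene, be compared between 5 genes that were higher and *Top2a*, which was lower. Each runs 5′ to 3′ on the gene's strand from 160 bases before to 30 after the start, in GRCm38.p6 coordinates, and capitals mark CHR-type and CCAAT motifs on either strand.
*Ect2*, chr3:27153849-27154038, minus strand: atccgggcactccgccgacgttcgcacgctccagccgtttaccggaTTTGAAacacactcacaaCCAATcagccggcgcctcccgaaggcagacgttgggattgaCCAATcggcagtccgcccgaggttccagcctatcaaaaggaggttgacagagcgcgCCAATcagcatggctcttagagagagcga
*Bub1*, chr2:127831830-127832019, minus strand: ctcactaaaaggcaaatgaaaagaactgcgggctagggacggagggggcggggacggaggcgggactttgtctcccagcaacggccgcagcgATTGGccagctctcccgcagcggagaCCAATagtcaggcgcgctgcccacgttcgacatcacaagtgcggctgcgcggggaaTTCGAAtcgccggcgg
*Cdk1*, chr10:69352883-69353072, minus strand: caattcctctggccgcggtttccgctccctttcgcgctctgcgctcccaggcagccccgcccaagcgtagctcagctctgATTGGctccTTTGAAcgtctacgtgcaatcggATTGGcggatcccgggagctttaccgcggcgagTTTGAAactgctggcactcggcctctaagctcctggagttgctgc
*Kif22*, chr7:127042391-127042580, minus strand: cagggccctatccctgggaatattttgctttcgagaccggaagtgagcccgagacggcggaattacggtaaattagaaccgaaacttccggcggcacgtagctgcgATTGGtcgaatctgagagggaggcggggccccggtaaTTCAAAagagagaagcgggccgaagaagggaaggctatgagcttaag
*Ccnb2*, chr9:70421525-70421714, minus strand: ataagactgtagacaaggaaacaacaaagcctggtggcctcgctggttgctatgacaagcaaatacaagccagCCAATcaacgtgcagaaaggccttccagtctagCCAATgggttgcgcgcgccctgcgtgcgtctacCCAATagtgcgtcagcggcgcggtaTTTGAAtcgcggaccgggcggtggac
*Top2a*, chr11:99024160-99024349, minus strand: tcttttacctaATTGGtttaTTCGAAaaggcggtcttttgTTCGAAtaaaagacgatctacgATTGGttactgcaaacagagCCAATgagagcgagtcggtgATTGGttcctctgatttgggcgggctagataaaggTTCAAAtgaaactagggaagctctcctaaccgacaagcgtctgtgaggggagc
In *Ect2*, *Bub1*, *Cdk1*, *Kif22* and *Ccnb2* the shown stretch holds 1 or 2 CHR-type motifs and 1 to 3 CCAAT boxes, the CCAAT boxes of *Cdk1* and *Kif22* in the reverse form ATTGG. *Top2a* holds 3 and 4 in the same stretch. The full windows hold 4 CHR-type motifs and 6 CCAAT in *Top2a*, the gene of the 6 whose difference was negative. Across the set, the median difference was 0.30 for the 29 measured genes with a CHR-type motif and 0.43 for the 9 without, and 0.32 for the 27 with CCAAT and 0.27 for the 11 without. The ranges overlapped, from −0.58 to 0.89 with a CHR-type motif and from −0.53 to 0.74 without.

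Among the genes of mitotic entry, 6 of 7 measured genes were higher with IR-61, where 61.2% of all measured genes were. The median difference of the 7 was 0.42. *Cdk1*, the kinase that drives entry, had a signal of 1079 with vehicle and 2317 with IR-61, a difference of 0.61 or 1.53-fold, which is beyond 6 of its expected SD of 0.094. Its partner *Ccnb1*, cyclin B1, went from 622 to 1449.8, a difference of 0.73. *Ccnb2*, cyclin B2, had 502 and 1045, a difference of 0.57, just under the 1.5-fold limit. The 3 genes of the mitotic CDK1 and cyclin B complexes were thus higher together, although other probes of *Ccnb1*, described further on, were not. *Ccna2*, cyclin A2 of S and G2 phase, had 471 and 881, a difference of 0.42, and *Plk1*, the Polo kinase of entry and spindle assembly, 402 and 703, a difference of 0.32. *Cdc25b*, a phosphatase that activates CDK1, had 195 and 331, a difference of 0.27. Those 3 differences were under 2 expected SD. *Plk4*, the kinase that starts centriole duplication, stood apart with 216 and 211, a difference of −0.53 that was 2.3 times its expected SD. *Cdc25c*, the other CDK1 phosphatase, was well above background on the IR-61 array, at 21.5, and not on the vehicle array, at 12.3. The 2 signals give a bound of 1.2-fold higher with IR-61. That bound, a log2 of 0.26, was within the expected SD of 0.456, so no direction is given for this gene.

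The chromosomal passenger complex corrects faulty attachments at centromeres and later directs cytokinesis. By the brightest probe all 4 of its genes were higher, where 61.2% of all measured genes were. The kinase of the complex, *Aurkb*, had a signal of 287 with vehicle and 734 with IR-61, a difference of 0.87 or 1.82-fold. *Birc5*, survivin, had 1207 and 2834, a difference of 0.74. *Cdca8*, borealin, had 1337 and 2577, a difference of 0.46. *Incenp*, the scaffold of the complex, had 5639 and 10302, with a difference of 0.38 that was 4.04 times its expected SD. At the spindle poles, *Aurka*, the Aurora A kinase, had 536 and 931, a difference of 0.31, while *Tpx2*, the protein that activates and targets it, had 746 and 584. The difference of *Tpx2* was −0.84, or 1.79-fold lower, with an expected SD of 0.229. *Tpx2* was 1 of 5 genes of the set whose unscaled signal was lower with IR-61, where about 8% of all measured genes were. Another measured probe of *Tpx2* had 109 and 137, a difference of −0.15, and with the mean over its probes the gene was at −0.50, short of 1.5-fold. By the median over probes *Birc5* was at 0.07 and *Cdca8* at 0.10.

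The spindle checkpoint and anaphase genes divided, with 5 of 9 higher and 4 lower, where 61.2% of all measured genes were higher. The median of the 9 was 0.33, which turned to −0.05 with normexp background correction. *Bub1*, a checkpoint kinase at the kinetochore, was printed as 10 spots on each array and is the best measured gene of the set. Its spots ranged from 220.5 to 270.1 with vehicle and from 541 to 607 with IR-61, and the spot ranges did not overlap. The mean scaled log2 signal was −2.39 ± 0.09 with vehicle and −1.65 ± 0.06 with IR-61 (SD over 10 spots of 1 array), a difference of 0.73 or 1.66-fold. *Mad2l1*, the MAD2 protein that binds CDC20, had 3172 and 6395, a difference of 0.52, and *Cdc20*, the activator of the anaphase-promoting complex, had 743 and 1446, a difference of 0.47. *Ube2c*, the ubiquitin-conjugating enzyme of that complex, had 257 and 454, a difference of 0.33. *Ttk*, the MPS1 kinase, was dim at 21.2 and 40.1, and its difference of 0.44 was within its expected SD of 0.456.

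The other 4 genes of this group had negative differences. *Bub1b*, the BUBR1 subunit of the checkpoint complex, had 138 and 149, a difference of −0.37, and *Bub3*, which brings BUB1 and BUBR1 to kinetochores, had 6489 and 8618, a difference of −0.08. *Pttg1*, securin, the inhibitor of separase, had 9640.5 and 11751, a difference of −0.20. *Espl1*, separase itself, was dim with 60.5 and 59.1, a difference of −0.52 that was 1.14 times its expected SD. Those of *Bub1b* and *Bub3* were under 2 expected SD, and without scaling they were 0.11 and 0.41. That of *Pttg1* was 2.14 times its expected SD, but it was −0.07 with normexp and 0.29 without scaling. None of the 4 passed 1.5-fold.

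Kinetochore and centromere genes showed no common direction. Of the 6 measured, 3 were higher and 3 lower, where 61.2% of all measured genes were higher. The median of the 6 was 0.02, and its sign turned under 8 of 13 alternative settings. *Cenpe*, a kinesin of the outer kinetochore, had signals of 461 and 1074, a difference of 0.73 or 1.66-fold, and *Cenpa*, the histone H3 variant of centromeres, had 818 and 1359, a difference of 0.24. The NDC80 complex grips the spindle microtubules. *Ndc80* had 219 and 206, a difference of −0.58 that was 2.53 times its expected SD, and *Nuf2* had 96.5 and 103, a difference of −0.40. *Spc24* had 173 and 239, a difference of −0.03, and *Spc25* had 2456 and 3588, a difference of 0.06. None of the 4 passed 1.5-fold, the difference of *Nuf2* was under 2 expected SD, and without scaling it was 0.09. *Cenpf*, a large protein of the outer kinetochore, was not well above background on either array, at 2.95 and 3.60, so no fold is given.

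**Figure D2:**
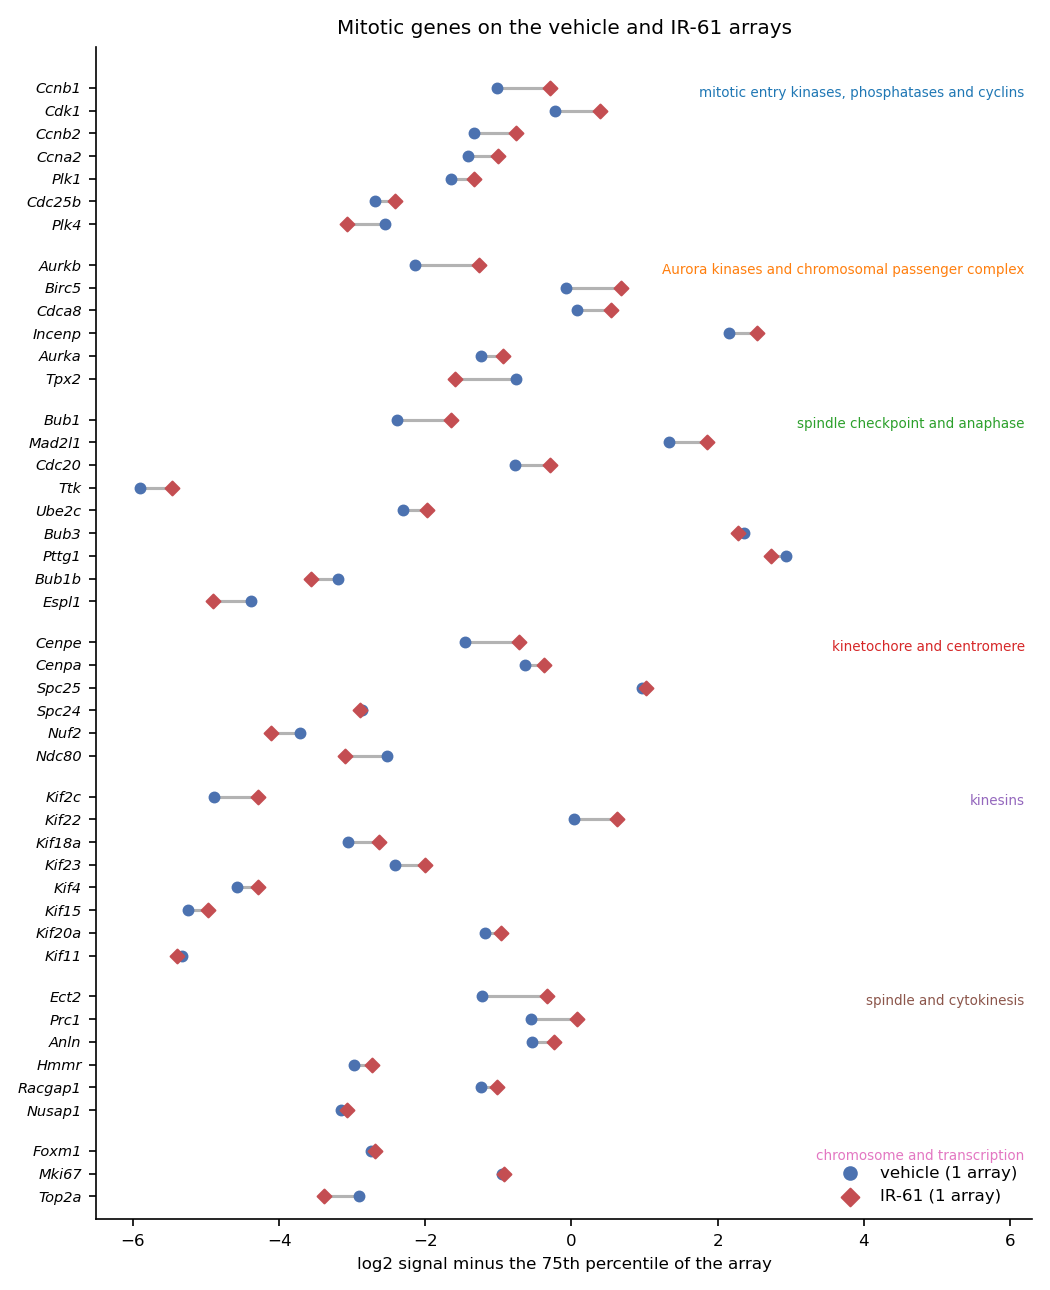
Log2 signal minus the 75th percentile of the array (horizontal axis) for each of the 45 measured mitotic genes, grouped by role, on the vehicle array (circles) and the IR-61 array (diamonds), 1 array per condition. The diamond lies to the right in 34 genes, with the widest gaps to the right at *Ect2* (0.89) and *Aurkb* (0.87) and the widest to the left at *Tpx2* (−0.84).

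Of the 8 kinesins, motor proteins that walk along or take apart microtubules, 7 were higher, where 61.2% of all measured genes were. The median of the 8 was 0.34. *Kif22*, a chromosome arm motor, had 1288 and 2718, a difference of 0.59 or 1.51-fold, beyond 6 of its expected SD. *Kif2c*, which depolymerizes microtubules at centromeres, had 42.7 and 90.7, a difference of 0.60 that was 1.59 times its expected SD of 0.376. *Kif18a*, which dampens chromosome movement, had 152 and 286, a difference of 0.43. *Kif23*, the motor subunit of centralspindlin, had 238 and 444, a difference of 0.41. These 4 led the group, and of them only *Kif22* passed 2 expected SD. *Kif4*, the chromokinesin, had 53.4 and 90.3, a difference of 0.27, and *Kif15*, a motor of the bipolar spindle, had 33.4 and 56.4, also a difference of 0.27, and both turned negative with normexp, at −0.06 and −0.16. *Kif20a*, a kinesin of the central spindle, had 557 and 905, a difference of 0.21. *Kif11*, Eg5, which drives the spindle poles apart, had 31.4 and 42.2, a difference of −0.06.

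All 6 genes of the spindle midzone and cytokinesis were higher, where 61.2% of all measured genes were. The median of the 6 was 0.28. *Ect2*, the exchange factor that switches on RhoA for the contractile ring, had the largest difference of the set. Its signal was 543 with vehicle and 1414 with IR-61, a difference of 0.89 or 1.86-fold with an expected SD of 0.188, and it ranked 496 from the top among all 16885 measured genes. *Prc1*, which bundles the midzone microtubules, had 866 and 1859.8, a difference of 0.61. *Anln*, anillin of the contractile ring, had 870.2 and 1504, a difference of 0.30. *Racgap1*, the centralspindlin subunit that binds ECT2, had 536 and 876, a difference of 0.22. *Hmmr*, a spindle protein and hyaluronan receptor, had 159.9 and 267, a difference of 0.25, and *Nusap1*, a microtubule-bundling protein, had 142 and 211, a difference of 0.08 that turned to −0.04 with normexp and −0.02 when centred on the median of all genes. Only *Ect2* and *Prc1* passed 2 expected SD.

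The 3 genes of chromosome structure and transcription had no difference past 1.5-fold and a median of 0.04, below that of all genes. *Mki67*, which coats mitotic chromosomes and is the Ki-67 antigen, had 653 and 939, a difference of 0.04. *Foxm1*, the transcription factor of the G2 program, had 189 and 275, a difference of 0.06. Both were within their expected SD of 0.229, and both turned negative under scaling by the median, at −0.05 and −0.03. *Top2a*, the topoisomerase that untangles sister chromatids, had 169 on both arrays, a difference of −0.49 after scaling.

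**Figure D3:**
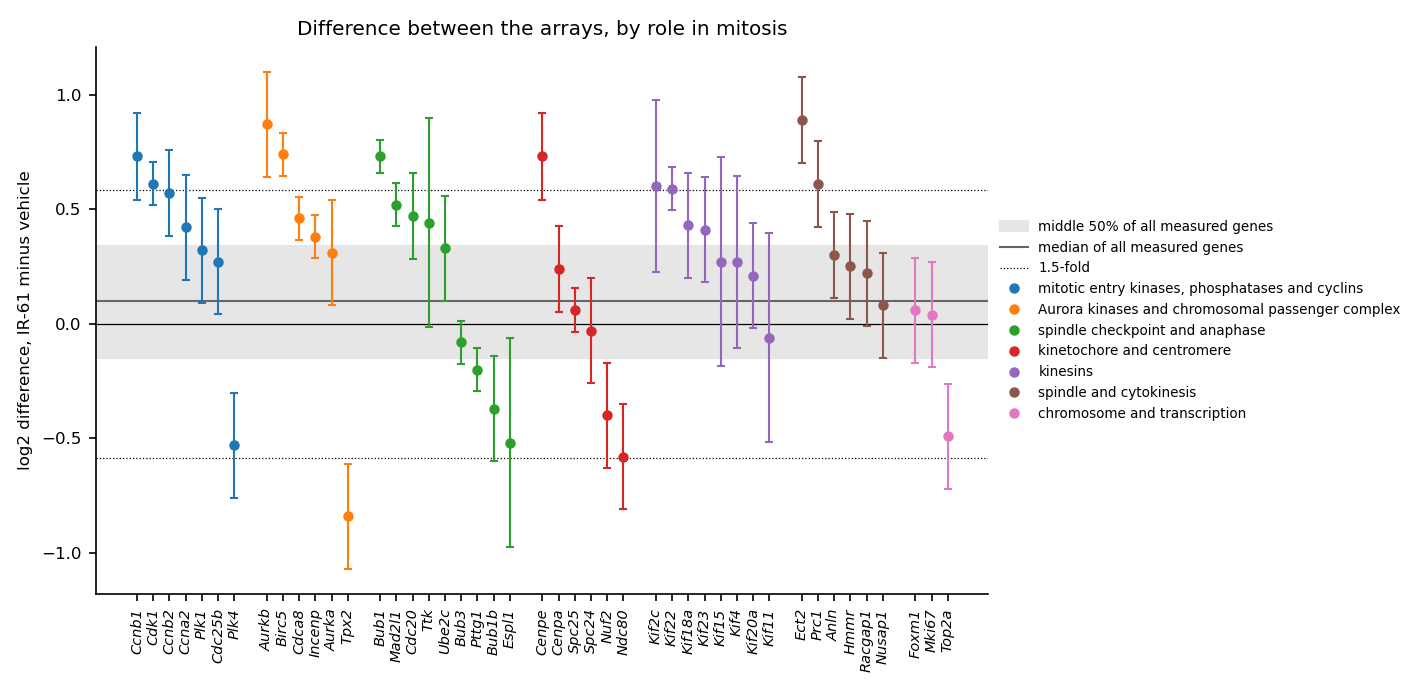
Log2 difference, IR-61 minus vehicle, of the 45 measured mitotic genes, grouped by role and in order of size within each role. Bars are 1 SD expected from the spread between spots within the arrays, which does not hold the spread between cultures. The middle range of all measured genes, between −0.15 and 0.34, is shaded. The genes range from *Ect2* at 0.89 to *Tpx2* at −0.84 around the median of the set of 0.30, with 10 past the upper 1.5-fold limit and 1 past the lower.

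Other probes of the same gene showed how much the choice of probe mattered. In the values above a gene takes its brightest probe. Of the set 13 genes had several measured probes, and the median difference of the brightest probes was 0.38, while that of the 16 other probes was 0.09. The same gap, in a smaller size, was seen for 4160 genes with several measured probes, at 0.10 for the brightest and −0.06 for the others. The probes of *Cdk1* at 1079 and 2317 and at 522 and 1110.0 gave 0.61 and 0.60, while its dimmest probe was well above background with vehicle only. Those of *Incenp* gave 0.38 and 0.29. For *Birc5*, in contrast, the probe at 1207 and 2834 gave 0.74, and those at 177 and 248 and at 147 and 216 gave −0.00 and 0.07. For *Ccnb1* the other probes, at 154 and 179.7 and at 95.7 and 143, gave −0.26 and 0.09 against 0.73. *Cdca8* had −0.25 on its other probe, and *Tpx2* −0.15 in place of −0.84. *Kif2c* had 0.60 and, on its other probe at 28.4 and 49.0, 0.30, and *Mad2l1* had 0.52 and 0.13 on both of its others. So the differences of *Birc5*, *Ccnb1*, *Kif2c* and *Tpx2* past 1.5-fold rest on 1 probe each. All measured probes lay on 1 side of 0 in 9 of the 13 genes, and in 2257 of the 4160 genes. *Ect2*, *Aurkb*, *Bub1*, *Cenpe*, *Prc1* and *Kif22* were read by 1 probe each.

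**Figure D4:**
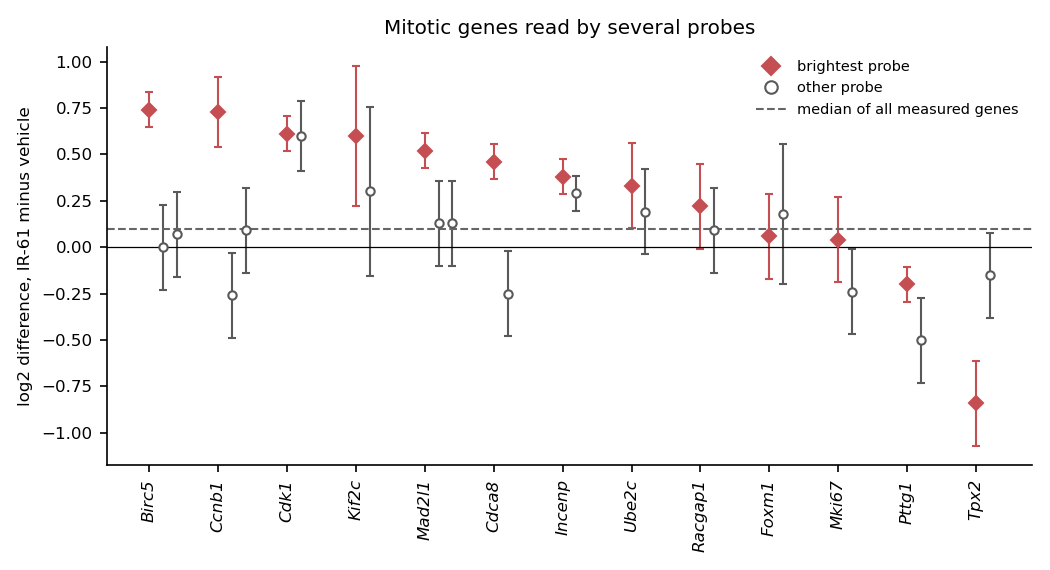
Log2 difference, IR-61 minus vehicle, of each measured probe of the mitotic genes with several measured probes, with the brightest probe and the others set apart by marker and with bars of 1 SD expected from the spread between spots. The brightest probe of *Birc5* (0.74) and of *Ccnb1* (0.73) lies far above their other probes, while the brightest and the next probe of *Cdk1* meet at 0.61 and 0.60.

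The set was also compared with genes of like brightness. For genes with a mean log2 signal above 10, the median difference was 0.46 for 13 mitotic genes and 0.10 for all. Between 6 and 10 it was 0.27 for 27 mitotic genes and 0.08 for all, and under 6 it was 0.27 for 5 and 0.16 for all. The mitotic median was above that of all genes in each of these 3 ranges. In the range under 6 that rested on 5 dim genes with expected SD of 0.376 or 0.456. With normexp *Ttk* (−0.19), *Kif15* (−0.16), *Kif11* (−0.23) and *Espl1* (−0.44) of these were negative and *Kif2c* (0.18) was positive.

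The wider cell cycle program was read in lists of related genes. Of 51 other mitotic genes 48 were measured, with a median difference of 0.29. Higher by 1.5-fold or more were 9 and lower 1, where 9.82% and 5.67% of all measured genes were. The largest difference was that of *Gtse1*, a microtubule and p53-binding protein of G2, at 196 and 522, or 0.93. The lowest was that of *Iqgap3*, a scaffold protein, at 75.7 and 44.3, or −1.26, and it was the only gene of these cell cycle lists past 2-fold. Condensin and cohesin, the rings that compact chromosomes and hold sister chromatids, had the highest median of the lists at 0.50. Above 0 were 16 of 17 genes, and 7 were higher by 1.5-fold or more, where 61.2% and 9.82% of all measured genes were. In that list *Stag2*, a cohesin subunit, had 8412 and 20340.2, a difference of 0.79, and *Wapl*, which releases cohesin, had 4549 and 4637, a difference of −0.46. The subunits of the anaphase-promoting complex stayed near all genes, with a median of 0.11 over 15, between *Anapc10* at 34.6 and 80.0 (0.72) and *Cdc23* at 63.9 and 45.8 (−0.97).

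The list of regulators, the DREAM, MuvB and E2F genes, had a median of 0.34 over 19, with 13 above 0, 3 higher and 1 lower by 1.5-fold or more, where 61.2%, 9.82% and 5.67% of all measured genes were. With the mean over detected probes that median was 0.14, where that of all genes was 0.08. *Lin9*, of the MuvB core, had 2095 and 4850.2, a difference of 0.72, *Mybl2*, B-MYB, had 819 and 1529.9, a difference of 0.41, and *E2f1*, an activating E2F factor, had 777 and 1504, a difference of 0.46. The extremes of that list were *Tfdp2*, an E2F partner, at 396 and 974, or 0.81, and *E2f2*, another E2F factor, at 1179 and 1087, or −0.61. Of the S-phase genes 16 of 22 were above 0 and 3 were higher by 1.5-fold or more, with a median of 0.28, where the same 61.2% and 9.82% hold for all genes. *Gmnn*, geminin, the inhibitor of re-replication, had 5242 and 13583, a difference of 0.89, and *Mcm2*, of the replicative helicase, had 642 and 749.8, a difference of −0.26.

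The G1 cyclins and their kinases had a median of 0.18 over 9, led by *Ccne2*, cyclin E2, at 81.1 and 218, or 0.94, with *Ccnd2*, cyclin D2, lowest at 101 and 131, or −0.12. With the mean over detected probes the median of this list was 0.02, below the 0.08 of all genes. Among the CDK inhibitors and mitotic brakes the median was 0.20 over 9, and the values were far apart. With the mean over detected probes it was 0.06, also below that of all genes. *Cdkn1a*, p21, had 1064 and 758, a difference of −0.98, but another measured probe of it had 47.9 and 95.5, a difference of 0.51. Lower by 1.5-fold or more were 2 genes of this list and higher 1, where 5.67% and 9.82% of all measured genes were. Beside *Cdkn1a* the lower one was *Cdkn1c*, p57, named here after its values were seen, with 40577 and 30487 on its 1 probe, a difference of −0.90 with an expected SD of 0.094. *Cdkn2a*, whose locus encodes p16 and p19ARF, had 1782 and 3804, a difference of 0.61. *Cdkn1b*, p27, had 5257 and 7663, a difference of 0.06 that turned to −0.04 when centred on the median of all genes, and *Wee1*, the kinase that holds CDK1 inactive, had 1457 and 2474, a difference of 0.28.

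**Figure D5:**
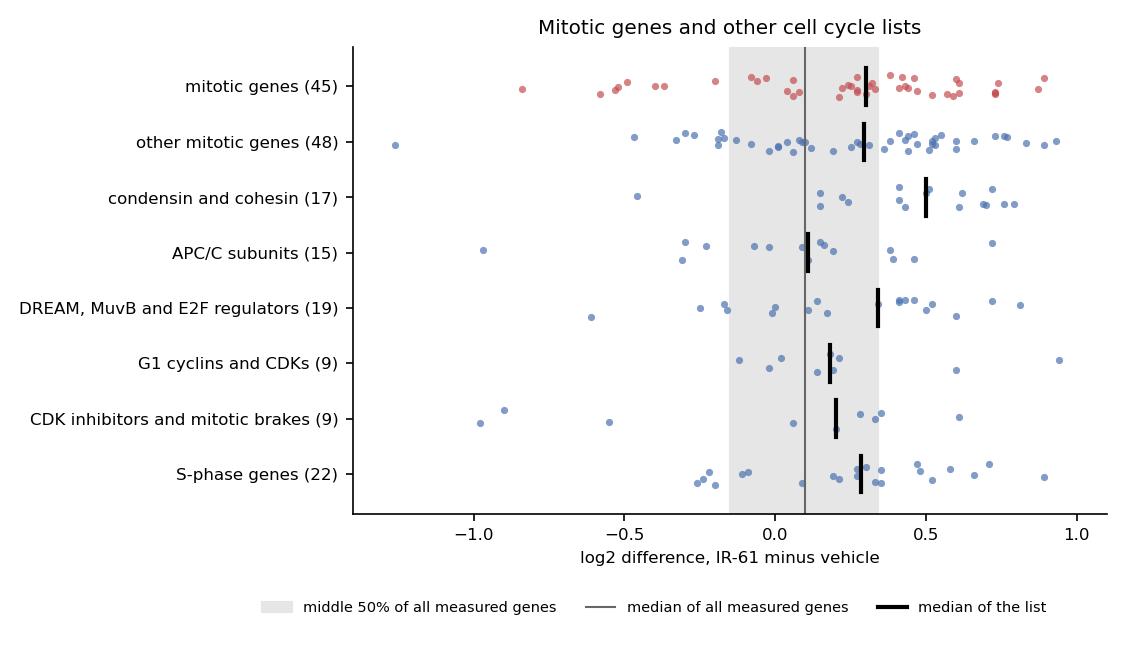
Log2 difference, IR-61 minus vehicle, of each measured gene in the set of mitotic genes and in 7 lists of related cell cycle genes (points, number of genes in brackets), with the list median as a black bar, the median of all measured genes as a thin line and their middle range between −0.15 and 0.34 shaded. The list medians run from 0.11 for APC/C subunits to 0.50 for condensin and cohesin, and every list spreads to both sides of 0.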

How the data were processed

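The gene microarray measured 1 vehicle-treated and 1 IR-61-treated culture of RAW264.7 cells. The labels gave the groups, and a figure legend of the study gave the dose. The authors deposited for each spot the intensity given by Agilent Feature Extraction (version 11.0.1.1 in the file headers, 11.0.0.1 in the submitters' processing notes), background-subtracted and detrended within the array and not scaled between arrays. They also deposited log2 values per probe, whose columns share their quartiles. The method behind these is not given in the sources used here, and they served as an alternative only.

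From the intensities, control spots and outlier spots (124 and 139) of the 44397 spots per array were left out, the remaining spots of each probe were averaged as log2 values, and each array was scaled to its 75th percentile. Names came from RefSeq accessions through a table of GRCm38.p6, which named 27234 of 39429. Since the array design gives another build, no probe positions are printed. Where a gene had several probes, the brightest unsaturated probe was used. The expected SD of a difference came from probes printed 10 times, pooled in bins of log2 signal split at 6 and 10, and from the number of spots. A probe well above background on 1 array gave a bound against the higher of its own dim signal and the lowest signal well above background on that array (12.8 with vehicle, 15.0 with IR-61).

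The 47 genes, the lists and the motifs were chosen with earlier results of these data known, so no list is independent evidence. Values are given for every measured gene of the set, for the genes with the largest rise and fall of each other cell cycle list, and for *Mybl2*, *Lin9*, *E2f1*, *Cdkn1a*, *Cdkn1b* and *Wee1*. With 1 array per condition no test was run, and 1.5-fold and 2-fold are limits of size. The steps were tested on simulated data. Alternatives were no scaling, scaling by loess, quantiles, the median or the 75th percentile of detected probes, the deposited log2 values, the mean or median over detected probes, outlier spots kept, no filter on dim probes, a signal of at least 100, and a promoter window from 150 bases before the start. Centring on the median of measured genes, and normexp (offset 50) on the median signal, with 4 IR-61 spots given the median background, were chosen after seeing the data. Calculations used limma 3.58.1 in R 4.3.3, and pandas 2.3.3, numpy 2.4.6, matplotlib 3.10.9 and statsmodels 0.14.6 in Python 3.11.15.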

Additional observations from a re-analysis of the deposited data

How the results depend on the processing

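The median difference of the mitotic genes was positive under all 13 alternatives, from 0.15 with normexp to 0.79 without scaling, where the median of all genes was 0.59. Its distance from the median of all genes ranged from 0.17 to 0.24. The counts of single genes depended more on the setting. Against 10 genes higher by 1.5-fold or more (9.82% of all measured genes), there were 6 with scaling by the median (7.01%). There were 6 with the 75th percentile over detected probes (8.43%) and 6 when centred on the median of measured genes (6.54%). The mean and the median over detected probes gave 7 each (8.56% and 8.59%), normexp 3 (5.11%) and no scaling 30 (50.5%). Without scaling 12 passed 2-fold, where 2156 of the 16885 measured genes were higher by as much. *Ect2* and *Aurkb* were the 2 genes past the upper limit under every alternative with scaling. Against 1 gene lower by 1.5-fold or more, there were 4 with scaling by the median, 2 with the 75th percentile over detected probes, 3 each with quantile normalization, loess and the deposited log2 values, 5 when centred, and 0 without scaling or with the mean or the median over detected probes. With the median over probes *Birc5* was at 0.07, *Ccnb1* at 0.09 and *Tpx2* at −0.50. Of 45 genes, 27 were positive and 11 negative under every alternative with scaling. Without scaling 5 of them were still negative, *Tpx2*, *Ndc80*, *Plk4*, *Espl1* and, barely, *Top2a* at signals of 169.29 and 168.77. Over all genes, 1658 were higher and 957 lower by 1.5-fold or more, so 63.4% of these were higher, against 48.0% with scaling by the median, 53.0% with quantile normalization, 51.6% with loess, 53.2% with the deposited values, 53.3% with normexp, 44.8% when centred and 97.8% without scaling. The shorter promoter window left the number of genes with a CHR-type motif at 30 of 39. No paired analysis was possible because 1 array stood for each condition, so no replicate could be left out either. The cause of these shifts was not tested. The signal over background limits *Cdc25c* to a bound and leaves *Cenpf* without a fold.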
